A study of Mus musculus with 4 samples.

Results

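The cell cycle and proliferation genes were 40 genes of S phase, mitosis and the cyclins, chosen by name from the 22095 loci of the deposited expression table, and all 40 were found there. They were compared between *rd7* and wild-type retinas at 3 weeks of age. RNA-seq covered 4 libraries, 2 of *rd7* and 2 of wild-type mice, and each library pooled 8 retinas of 2 female and 2 male animals. The *rd7* animals carried a mutation of *Nr2e3*, a transcription factor gene of rod development, in every cell of the body, no agent was given, and the labels give the strain C57BL/6J for both genotypes. Because whole retinas were pooled, a change in the number of cells of a type and a change in RNA per cell cannot be told apart.

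The cell cycle is driven by cyclins and the kinases they activate. D-type cyclins with CDK4 or CDK6 and E-type cyclins with CDK2 carry cells through G1, E2F factors switch on the genes of DNA replication, the MCM helicase is loaded onto replication origins, and A- and B-type cyclins with the Aurora and Polo kinases run mitosis. In the mouse retina progenitors leave the cycle in early postnatal life, and Müller glia stay quiescent in the adult, while microglia and vascular cells can still divide. Several of these proteins also have roles in cells that no longer divide.

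Values are FPKM, fragments normalized by the authors for transcript length and library size, so levels of different genes are compared per length. Reads were estimated from genes with a single transcript. The median of their FPKM times kilobases within a fixed low window, 0.02 to 0.036, was taken as 1 read. By this estimate an FPKM of 1 over 1 kb stood for between 34.9 and 35.6 reads, or 34900000 to 35600000 reads per library. The window bounds the estimate in advance, so read numbers are approximate. The mutated gene *Nr2e3* had FPKM of 2493 and 1589 in *rd7* and of 385 and 394 in wild-type libraries, so its transcript was higher in the mutant (log2 fold change 2.35, SE 0.20, adjusted p = 0.00110 from limma) and its level does not check the labels by loss. The 12655 genes whose FPKM averaged 1 or more were tested with limma on log2(FPKM + 0.1), with Benjamini-Hochberg adjustment and a false discovery rate threshold (FDR) of 5%. Of these, 4755 (37.6%) were higher and 1114 (8.80%) lower in *rd7*. With median-ratio scaling the shares were 19.6% and 19.4%. Log2 fold changes of all genes tested had a median of 0.15 as deposited and near 0 after median-ratio scaling, and on this scale the changes of low genes are understated. Cone, bipolar, amacrine, ganglion, horizontal and Müller cell markers were present in all libraries.

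Many of the 40 genes were low in retinas of either genotype. A mean FPKM of at least 1 was reached by 21 genes, which were tested, and 19 lay under it. Of those tested, 10 (47.6%) were higher in *rd7* and 2 (9.52%) lower, against 37.6% and 8.80% of all genes tested. Their median log2 fold change was 0.23, beside 0.15 over all genes. Both *rd7* values lay above both wild-type values for 12 of the 21, and 57.1% of all genes tested did the same. In these shares, on the values as deposited, the members as a group were near the background. *Cdk6* passed the filter only through its *rd7* values and could enter the test only as a rise, and without it 9 of 20 (45.0%) were higher. *Bub1b*, *Cdk6* and *Ccne2* were higher by at least 1 on the log2 scale and past the FDR, 3 of the 21 with *Cdk6* and 2 of 20 without it, as were 2.04% of all genes tested. No member was lower by as much, beside 0.632% of all genes. With median-ratio scaling, with quantile normalization and after adjusting for the GC content and length of exons, 6 of the 21 (28.6%) were higher, and these were in each case *Bub1b*, *Cdk6*, *Ccne2*, *Plk1*, *Cdkn1a* and *Ccnd1*. Of all genes, 19.6% were higher under median-ratio scaling, 18.6% under quantile normalization and 12.4% after the adjustment. The share of members was thus larger than that of all genes in each, a difference that was not tested and that *Cdk6* could enter only as a rise. Members called lower were 2, 3 and 2 in these fits, the third being *E2f1* under quantile normalization, beside 19.4%, 19.0% and 15.1% of all genes. Without wild-type replicate 1, 5 members were higher and 1 lower (10.2% and 1.77% of all genes), and without wild-type replicate 2, 6 and 2 (16.8% and 2.67%). Without *rd7* replicate 1, 9 were higher and 4 lower (41.0% and 12.7% of all genes), *E2f1* and *Cdkn1c* being added to the lower pair. Without *rd7* replicate 2, 12 were higher and 2 lower (43.3% and 11.6%), *Cdk4* (log2 fold change 0.21, adjusted p = 0.0195 from limma) and *Cdkn1c* being added to the higher genes.

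**Figure D1:**
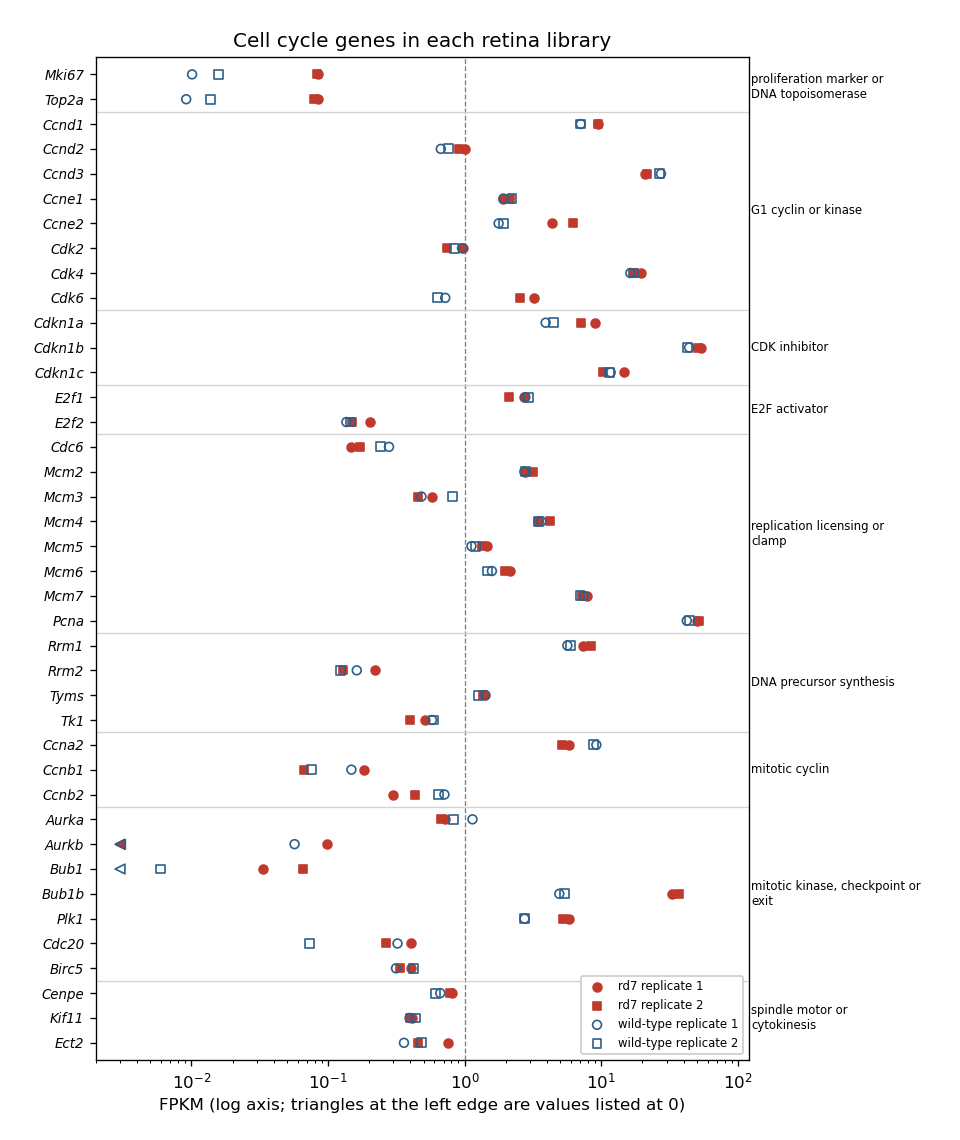
FPKM (log axis) of the 40 genes in each library, grouped by role, with filled symbols for *rd7*, open symbols for wild-type, and triangles at the left edge for values listed at 0; the dashed line marks an FPKM of 1. *Bub1b*, *Cdk6* and *Ccne2* have the widest gaps between genotypes among the genes over the line in *rd7*, while *Mki67* and *Top2a* stay under 0.1 FPKM in all 4 libraries.

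*Mki67* and *Top2a*, which mark dividing cells, were low in both genotypes and had between 2.94 and 5.68 estimated reads in wild-type libraries. *Mki67*, which encodes the proliferation antigen Ki-67, had FPKM of 0.0840 and 0.0826 in *rd7* and of 0.0101 and 0.0158 in wild-type libraries. These values correspond to about 29.9 and 29.0 reads in *rd7* and 3.59 and 5.68 reads in wild-type libraries. The groups did not overlap, and the ratio of summed reads was 6.62 (exact 95% interval 3.26 to 15.2, for counting error only). *Top2a*, the topoisomerase that untangles sister chromatids, had FPKM of 0.0838 and 0.0791 in *rd7* and of 0.00915 and 0.0137 in wild-type libraries. It showed the same order, with a ratio of summed reads of 7.50 (exact 95% interval 3.40 to 19.6), though its reads were counted over the exons of 8 transcripts and are overestimated. Both genes lay far under the filter of the test. When limma was fitted to all loci without a filter, where 10.3% of loci were called higher and 2.08% lower, both had a log2 fold change of 0.70 (adjusted p = 0.0231 for *Mki67* and 0.0222 for *Top2a*), a scale on which the added 0.1 exceeds the values themselves. They were the 2 of the 19 low members called in that fit, in which *Ccna2* and *Ccnd3* were the 2 members called lower.

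Most other markers of mitosis overlapped between the genotypes or lay lower in *rd7*. *Ccnb1*, the B-type cyclin of mitotic entry, had FPKM of 0.182 and 0.0669 in *rd7* and of 0.148 and 0.0760 in wild-type libraries, so the genotypes overlapped. *Ccnb2*, the second B-type cyclin, was at 0.301 and 0.430 in *rd7* and at 0.710 and 0.645 in wild-type libraries, below both wild-type values but not called in the fit without a filter (log2 fold change -0.75, adjusted p = 0.129 from limma). Both libraries of *rd7* also lay below both of wild-type for *Aurka*, the Aurora kinase of the spindle poles. Its values were 0.721 and 0.672 against 1.14 and 0.824, with an adjusted p of 0.313 in the limma fit without a filter. *Aurkb*, the Aurora kinase of the chromosomal passenger complex, was listed at 0 in 1 library of each genotype and at 0.0979 in the other *rd7* and 0.0568 in the other wild-type library. *Birc5*, encoding survivin of the same complex, was between 0.314 and 0.422 in all 4 libraries with the genotypes overlapping. *Kif11*, the motor that separates spindle poles, was between 0.395 and 0.437 and also overlapped. For *Cdc20*, the activator of the anaphase-promoting complex, 1 wild-type library at 0.0731 stood below the other 3, which lay between 0.266 and 0.404, and the locus overlaps *Elovl1*. The kinetochore motor gene *Cenpe* was higher in both *rd7* libraries, at 0.804 and 0.781 against 0.662 and 0.613, and *Ect2*, which directs the cleavage furrow, overlapped between 0.359 and 0.756. Neither of the last pair was called without a filter (adjusted p = 0.203 and 0.524 from limma).

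Of the 19 genes under the filter, both *rd7* values lay above both wild-type values in 6 and below them in 4, and in 9 the genotypes overlapped. Among all loci under the filter, 16.8% lay above and 10.1% below. The summed FPKM of the 19 genes was 7.91 and 6.58 in *rd7* and 7.38 and 7.12 in wild-type libraries, so the genotypes overlapped in the sum. The genes above both wild-type values were *Mki67*, *Top2a*, *Bub1*, *Cenpe*, *Ccnd2* and *E2f2*, and those below were *Ccnb2*, *Aurka*, *Cdc6* and *Tk1*.

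**Figure D2:**
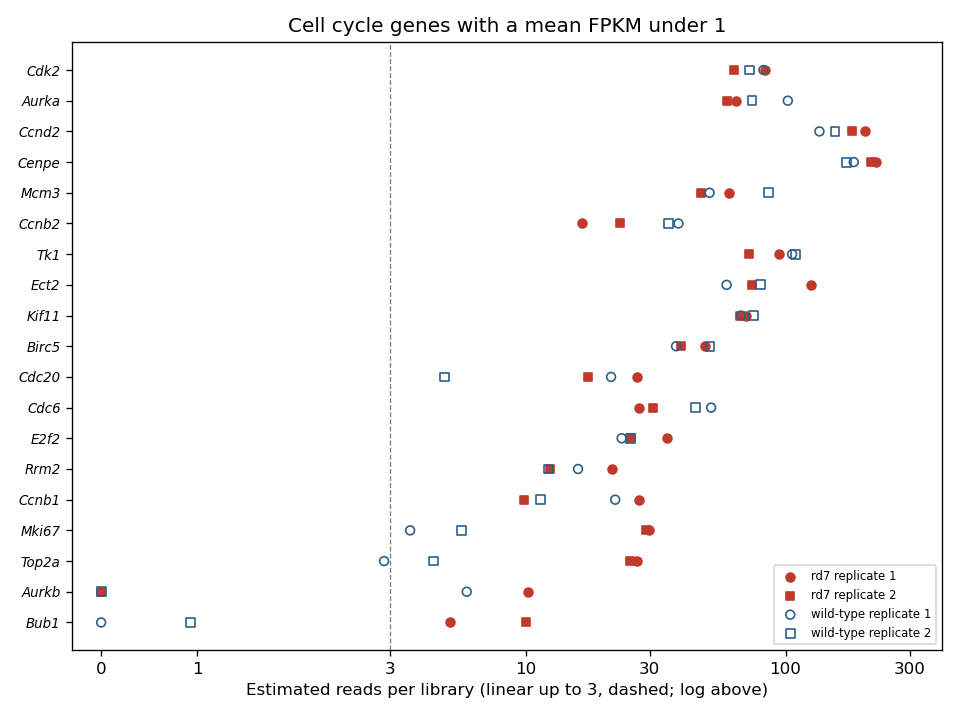
Estimated reads per library for the 19 genes under the filter (axis linear up to 3 reads at the dashed line and logarithmic above), ordered by mean FPKM, with filled symbols for *rd7* and open symbols for wild-type. *Mki67* and *Top2a* lie between 25.1 and 29.9 reads in *rd7* and between 2.94 and 5.68 in wild-type libraries, while *Ccnb1*, *Cdc20*, *Birc5* and *Kif11* overlap; for genes with several transcripts the reads are overestimated.

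*Bub1b* rose most of the 21 genes tested and stood 25th among the rises of all 12655 genes. It encodes BubR1, which with MAD2 and BUB3 holds back the anaphase-promoting complex until every kinetochore is attached. Its FPKM was 33.0 and 37.0 in *rd7* and 4.92 and 5.34 in wild-type libraries, from about 4997 and 5523 reads against 746 and 814. The values of each genotype lay close together and far from those of the other, a 6.82-fold difference of means and a log2 fold change of 2.74 (SE 0.08, adjusted p = 5.98e-05 from limma). Over every alternative fit it stayed between 2.53 and 2.83 on the log2 scale, and it passed the FDR of 5% in every fit with all 4 libraries. *Bub1*, the paralog that recruits BubR1 to kinetochores, was at 0.0332 and 0.0657 FPKM in *rd7* and at 0 and 0.00596 in wild-type libraries, about 5.11 and 9.99 reads against 0 and 0.925. Its *rd7* values were higher but averaged 0.0494 FPKM, and the difference was not called without a filter (adjusted p = 0.134 from limma). *Bub1b* at 35.0 ± 2.81 FPKM (SD, n = 2) in *rd7* was above every other mitotic cyclin, kinase, checkpoint and spindle member in either genotype, the next being *Ccna2* at 8.96 ± 0.315 FPKM (SD, n = 2) in wild-type libraries.

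*Plk1*, the Polo-like kinase of mitotic entry and spindle assembly, was the only other gene of the mitotic kinase and checkpoint group to pass the filter. Its FPKM was 5.81 and 5.20 in *rd7* and 2.74 and 2.73 in wild-type libraries, with a log2 fold change of 0.98 (SE 0.09, adjusted p = 0.00129 from limma). The genotypes did not overlap, and the call held in every fit with all 4 libraries in which *Plk1* was tested. Over all fits its log2 fold change ran from 0.79 to 1.06. *Ccna2*, which encodes the A-type cyclin of S phase and G2, went the other way. It was at 5.78 and 5.18 FPKM in *rd7* and at 9.19 and 8.74 in wild-type libraries, with a log2 fold change of -0.70 (SE 0.08, adjusted p = 0.00219 from limma). It was the lowest log2 fold change of the tested members and stayed lower in every fit, between -0.98 and -0.62. The end of its locus overlaps that of *Exosc9*, which lies on the opposite strand and had a log2 fold change of 0.11 (adjusted p = 0.176 from limma), and no strand is given for the reads. *Bbs7*, beside the other end of the *Ccna2* locus without overlap, was at 43.8 and 42.7 FPKM in *rd7* and at 54.9 and 58.2 in wild-type libraries. Its log2 fold change was -0.39 (adjusted p = 0.00347 from limma).

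The promoters of mitotic genes typically carry CCAAT boxes, bound by NF-Y, and a CHR element, through which the DREAM complex holds them silent in resting cells. For the genes with such different levels, *Bub1b*, *Bub1*, *Mki67* and *Top2a*, and for *Cdk6*, the next largest rise, the RefSeq promoter windows (250 bases before to 50 after the annotated start) are shown. Each window was found once in mm9, the build of the deposited loci: *Bub1b* at chr2:118423697-118423996 on the plus strand, *Bub1* at chr2:127657546-127657845 on the minus strand, *Mki67* at chr7:142908013-142908312 on the minus strand, *Top2a* at chr11:98885454-98885753 on the minus strand, and *Cdk6* at chr5:3343643-3343942 on the plus strand. All but that of *Cdk6* have their start at the edge of the deposited locus. Matches on either strand are in capitals. The letters searched were TTTGAA and its variant TTCGAA for the CHR, CCAAT for NF-Y, TAATCC for CRX, a photoreceptor homeodomain factor, and AAGTCA for the site of a single NR2E3 molecule. For E2F the letters were TTGGCGC with the variants TTCCCGC and also TTCGCGC and further TTGCCGC.
Bub1b: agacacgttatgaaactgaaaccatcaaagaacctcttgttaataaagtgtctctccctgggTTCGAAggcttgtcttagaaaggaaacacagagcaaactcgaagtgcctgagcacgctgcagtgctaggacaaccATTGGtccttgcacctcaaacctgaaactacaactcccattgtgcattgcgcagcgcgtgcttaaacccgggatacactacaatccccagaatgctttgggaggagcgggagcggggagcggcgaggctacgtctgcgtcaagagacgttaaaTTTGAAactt
Bub1: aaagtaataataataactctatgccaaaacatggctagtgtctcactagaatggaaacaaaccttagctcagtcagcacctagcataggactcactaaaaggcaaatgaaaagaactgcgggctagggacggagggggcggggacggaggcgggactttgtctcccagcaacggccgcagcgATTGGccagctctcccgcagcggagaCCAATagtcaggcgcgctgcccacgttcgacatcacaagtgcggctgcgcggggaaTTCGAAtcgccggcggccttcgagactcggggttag
Mki67: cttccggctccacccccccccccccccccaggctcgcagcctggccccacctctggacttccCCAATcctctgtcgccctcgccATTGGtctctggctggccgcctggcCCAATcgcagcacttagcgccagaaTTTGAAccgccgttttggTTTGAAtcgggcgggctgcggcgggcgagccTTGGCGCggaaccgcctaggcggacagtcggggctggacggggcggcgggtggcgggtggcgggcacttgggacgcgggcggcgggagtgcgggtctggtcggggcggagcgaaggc
Top2a: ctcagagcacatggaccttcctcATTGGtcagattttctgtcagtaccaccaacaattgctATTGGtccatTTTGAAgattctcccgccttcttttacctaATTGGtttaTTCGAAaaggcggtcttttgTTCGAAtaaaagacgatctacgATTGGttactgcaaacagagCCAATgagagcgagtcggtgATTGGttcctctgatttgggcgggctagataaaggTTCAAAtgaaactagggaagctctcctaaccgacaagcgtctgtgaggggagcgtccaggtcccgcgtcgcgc
Cdk6: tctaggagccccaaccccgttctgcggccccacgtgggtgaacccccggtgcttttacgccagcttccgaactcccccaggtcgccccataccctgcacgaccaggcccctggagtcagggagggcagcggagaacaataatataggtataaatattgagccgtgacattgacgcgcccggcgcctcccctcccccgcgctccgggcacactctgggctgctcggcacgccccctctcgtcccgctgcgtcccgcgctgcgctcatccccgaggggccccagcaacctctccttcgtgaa
The window of *Bub1b* held 2 CHR matches, first bases at -188 and 41 from the start, and 1 CCAAT on the opposite strand at -113. That of *Bub1* held 1 CHR match at 15 and CCAAT at -68 and -42. *Mki67* had 2 CHR matches, 3 of CCAAT and 1 of E2F, *Top2a* had 4 of CHR and 6 of CCAAT, and the *Cdk6* window had none of the letters. CHR and CCAAT letters thus occurred both in the window of *Bub1b* and in those of the near-silent genes. RefSeq windows were found for 33 of the 40 genes (38 windows), and not for *Ccne2* and *Ccna2*. Of these windows, 36.8% held a CHR match, 71.1% CCAAT and 36.8% an E2F match, beside 19.2%, 37.4% and 9.57% of all 32851 windows in the table. CRX letters were in 0 of the 38 and in 7.06% of all windows, and the NR2E3 letters in 10.5% and 15.1%.

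Among the G1 cyclins and kinases, 3 of the 6 genes tested were higher and 1 was lower, counts near the 37.6% and 8.80% of all genes. *Cdk6*, a partner kinase of the D-type cyclins, had FPKM of 3.22 and 2.55 in *rd7* and of 0.720 and 0.636 in wild-type libraries. It rose by a log2 fold change of 1.93 (SE 0.17, adjusted p = 0.00123 from limma), 4.26-fold between means. *Cdk4*, the other partner of the D-type cyclins, was at 19.5 and 17.3 FPKM in *rd7* and at 16.3 and 17.3 in wild-type libraries, with a log2 fold change of 0.13 (SE 0.07, adjusted p = 0.197 from limma). *Cdk6* passed the filter only through its *rd7* values and could enter the test, and the count of higher genes in this group, only as a rise. The difference between *Cdk6* and *Cdk4* can therefore not be read as one that follows their level in wild-type retinas.

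*Ccne2*, an E-type cyclin that activates CDK2 at the entry to S phase, had FPKM of 4.35 and 6.15 in *rd7* and of 1.77 and 1.93 in wild-type libraries. The *rd7* pools differed from each other but both lay above wild-type, a log2 fold change of 1.43 (SE 0.17, adjusted p = 0.00250 from limma). The call was lost when loci with low FPKM were included (adjusted p = 0.0645 from limma), and the log2 fold change was 1.05 after adjusting for GC content and length. Its locus overlaps that of *Ints8* on the opposite strand, which had FPKM of 10.0 and 9.96 in *rd7* and of 7.65 and 8.03 in wild-type libraries. The other E-type cyclin, *Ccne1*, was between 1.92 and 2.22 FPKM in all 4 libraries, with a log2 fold change of -0.02 (SE 0.13, adjusted p = 0.921 from limma). Their kinase *Cdk2* was under the filter, between 0.746 and 0.972 FPKM with the genotypes overlapping.

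The D-type cyclins, which link growth signals to the cycle, moved in different directions. *Ccnd1* had FPKM of 9.52 and 9.51 in *rd7* and of 7.06 and 7.01 in wild-type libraries, with a log2 fold change of 0.43 (SE 0.06, adjusted p = 0.00338 from limma). *Ccnd3*, the most abundant D-type cyclin gene here, was at 20.7 and 21.4 FPKM in *rd7* and at 27.3 and 26.7 in wild-type libraries, with a log2 fold change of -0.36 (SE 0.05, adjusted p = 0.00381 from limma). Both differences were small but larger than the spread within either genotype. With a library left out, the log2 fold change ran from 0.43 to 0.44 for *Ccnd1* and from -0.38 to -0.34 for *Ccnd3*. *Ccnd2* was under the filter, at 1.00 and 0.906 FPKM in *rd7* and at 0.668 and 0.764 in wild-type libraries. Part of the *Ccnd3* locus overlaps *Bysl*.

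Inhibitors of the cyclin-dependent kinases were among the most abundant members, and 2 of the 3 were higher in *rd7*, beside 37.6% of all genes, with only *Cdkn1a* still called after median-ratio scaling. *Cdkn1a*, which encodes p21, a target of p53, had FPKM of 9.04 and 7.13 in *rd7* and of 3.91 and 4.49 in wild-type libraries. Its log2 fold change was 0.92 (SE 0.13, adjusted p = 0.00397 from limma). It passed the FDR of 5% in every limma fit with all 4 libraries except that without a filter (adjusted p = 0.0809). *Cdkn1b*, encoding p27, which keeps postmitotic retinal cells out of the cycle, had the highest mean level of the 40 genes, at 53.7 and 50.9 FPKM in *rd7* and 43.9 and 42.9 in wild-type libraries. The log2 fold change of *Cdkn1b* was 0.27 (adjusted p = 0.00959 from limma). Median-ratio scaling ended this call (0.11), as did the fit without a filter, and the sign turned after adjusting for GC content and length (-0.06). *Cdkn1c*, encoding p57, was at 14.6 and 10.2 FPKM in *rd7* and at 11.7 and 11.4 in wild-type libraries. The *rd7* pools lay on either side of wild-type, and the log2 fold change was 0.07 (SE 0.16, adjusted p = 0.733 from limma). The log2 fold change was -0.19 without *rd7* replicate 1 and 0.33 without *rd7* replicate 2, with no *rd7* spread measured in either fit. *E2f1*, an activating E2F factor, was at 2.73 and 2.12 FPKM in *rd7* and at 2.78 and 2.93 in wild-type libraries so both *rd7* values were below wild-type but not called (log2 fold change -0.24, SE 0.14, adjusted p = 0.207 from limma). It was called lower under quantile normalization (-0.45, adjusted p = 0.0472 from limma). Its log2 fold change was -0.42 without *rd7* replicate 1 and -0.06 without *rd7* replicate 2. *E2f2* was between 0.136 and 0.202.

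**Figure D3:**
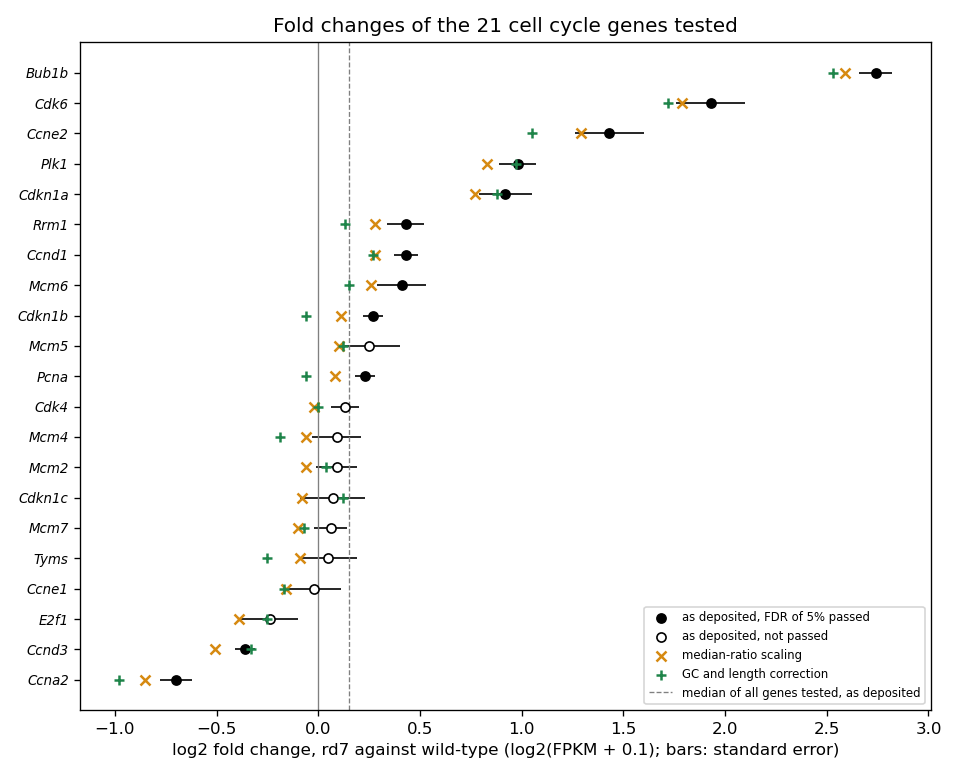
Log2 fold change of the 21 genes tested (circles with standard error, filled where the FDR of 5% was passed), with the values after median-ratio scaling (crosses) and after adjusting for GC content and length (plus signs); the dashed line is the median of all genes tested, 0.15. *Bub1b*, *Cdk6*, *Ccne2*, *Plk1* and *Cdkn1a* stay above 0.7 under all 3, while the values of *Cdkn1b*, *Pcna*, *Cdk4* and most *Mcm* genes move to near or below 0.

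Genes of replication licensing and DNA synthesis had small differences. *Pcna*, the sliding clamp used in replication and in DNA repair, was at 50.1 and 51.5 FPKM in *rd7* and at 42.2 and 44.1 in wild-type libraries (log2 fold change 0.23, SE 0.05, adjusted p = 0.0137 from limma). Median-ratio scaling ended that call (0.08), and the sign turned after adjusting for GC content and length (-0.06). The MCM2-7 helicase unwinds the origins, and of the 5 subunit genes tested only *Mcm6* was called, at 2.16 and 1.96 FPKM against 1.58 and 1.47 (log2 fold change 0.41, adjusted p = 0.0414 from limma). The *Mcm6* call was lost under 7 of 10 alternatives that kept all 4 libraries, the replicate block included (adjusted p between 0.0165 and 0.453 in limma). *Mcm2*, *Mcm4*, *Mcm5* and *Mcm7* had log2 fold changes between 0.06 and 0.25 and adjusted p between 0.222 and 0.584 in limma, and the *Mcm7* locus also holds *Mir106b*, *Mir25* and *Mir93*. The sixth subunit gene, *Mcm3*, was under the filter, between 0.454 and 0.809 FPKM with the genotypes overlapping. The licensing factor gene *Cdc6* was lower in both *rd7* libraries, at 0.147 and 0.170 FPKM against 0.279 and 0.241, and was not called without a filter (log2 fold change -0.48, adjusted p = 0.0813 from limma).

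The subunits of ribonucleotide reductase, which makes the DNA precursors, were at very different levels. *Rrm1*, the large subunit, was at 7.28 and 8.44 FPKM in *rd7* and at 5.64 and 5.94 in wild-type libraries, with a log2 fold change of 0.43 (SE 0.09, adjusted p = 0.0124 from limma), which median-ratio scaling ended (0.28). *Rrm2*, the small subunit made in S phase, was between 0.124 and 0.220 FPKM in all 4 libraries, about 12.2 to 21.5 reads, and the genotypes overlapped. *Tyms*, thymidylate synthase, was between 1.26 and 1.41 FPKM with overlapping genotypes (log2 fold change 0.05, adjusted p = 0.781 from limma). *Tk1*, the thymidine kinase of S phase, was at 0.512 and 0.398 FPKM in *rd7* and at 0.576 and 0.588 in wild-type libraries and was not called without a filter (adjusted p = 0.318 from limma). Reads of *Tk1* can be shared with the overlapping locus *Afmid*.

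A wider list of 127 other cell cycle genes was read in the same fit. Of these, 76 were tested, 18 (23.7%) were higher and 5 (6.58%) lower, with a median log2 fold change of 0.09, and these shares lay below the 37.6% and 8.80% of all genes tested. Of 33 other S phase genes tested, 6 were higher and 1 lower. Of 20 other mitosis genes tested, 3 were higher and 3 lower, and 33 more lay under the filter. Of 23 other G1 and checkpoint genes tested, 9 were higher and 1 lower. Median-ratio scaling gave 11 of the 76 genes higher and 13 lower, beside 19.6% and 19.4% of all genes tested.

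As in the 40 genes, a few members stood out. *Cdt1*, which loads the MCM helicase at origins, was at 4.75 and 5.11 FPKM in *rd7* and at 1.27 and 1.08 in wild-type libraries, with a log2 fold change of 1.98 (SE 0.12, adjusted p = 0.000508 from limma). *Pola1*, the catalytic subunit of the polymerase that starts DNA strands, was at 4.16 and 3.80 FPKM against 1.35 and 1.50, a log2 fold change of 1.42 (SE 0.11, adjusted p = 0.000971 from limma). *Ckap2*, a spindle microtubule protein, was at 2.12 and 1.41 FPKM against 0.285 and 0.325, a log2 fold change of 2.18 (SE 0.26, adjusted p = 0.00260 from limma), and passed the filter only through *rd7*. All 3 were called in every fit with all 4 libraries in which they were tested. *Cdk1*, the kinase of mitosis, did not share these rises. It was at 0.129 and 0.0437 FPKM in *rd7* and at 0.0915 and 0.105 in wild-type libraries, with the genotypes overlapping. The 5 lower genes were *Pold1*, *Spc24*, *Spc25*, *Pttg1* and *E2f4*, with log2 fold changes between -0.62 and -0.27. Among these, *Spc25*, a kinetochore gene with FPKM of 64.6 and 59.8 against 82.8 and 83.8, was called in every fit with all 4 libraries.

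**Figure D4:**
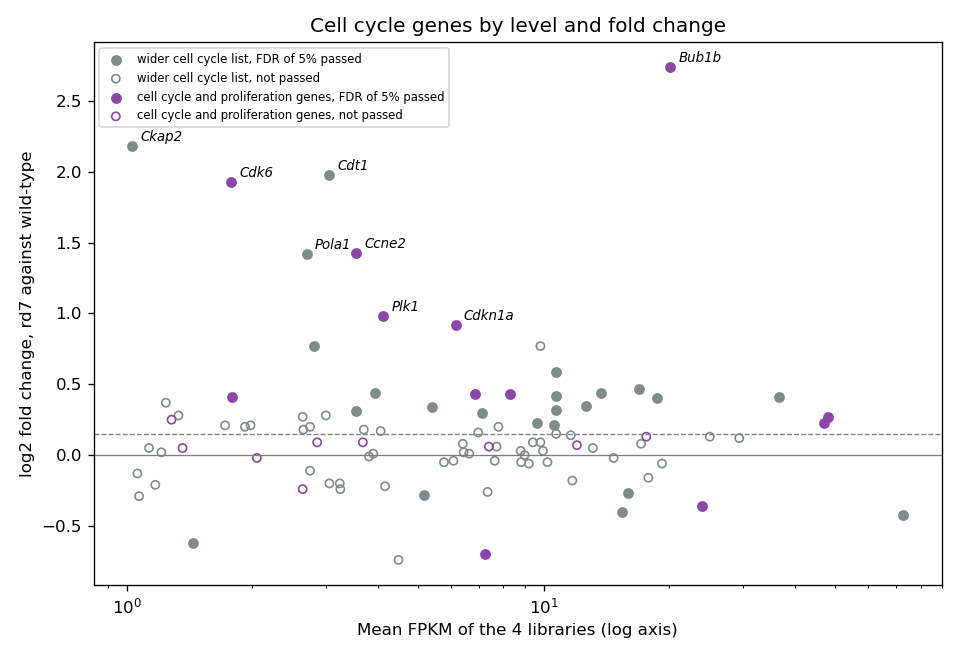
Log2 fold change against the mean FPKM of the 4 libraries (log axis) for the 21 cell cycle and proliferation genes tested (purple) and the 76 tested genes of the wider list (grey), filled where the FDR of 5% was passed; the dashed line is the median of all genes tested, 0.15. *Bub1b* at a log2 fold change of 2.74 lies above all others, and *Ckap2*, *Cdk6*, *Cdt1*, *Pola1* and *Ccne2* follow at 1.42 or more.

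Markers of cell types in or beside the retina were read in the same libraries, and their counts stand beside the 37.6% of all genes that were higher and the median log2 fold change of 0.15. Of 9 microglia markers, 6 were tested, and 3 were higher and none lower in *rd7*, with a summed FPKM of 25.1 and 31.6 in *rd7* and of 21.7 and 21.6 in wild-type libraries. Of 7 endothelial markers 1 was higher, with sums of 52.2 and 35.9 against 29.9 and 32.6. The marker called was *Kdr*, at 23.4 and 20.7 FPKM in *rd7* and at 15.3 and 15.5 in wild-type libraries. It weighs heavily in these sums, and in the other 6 endothelial markers the genotypes overlapped. Of 3 pericyte markers tested 2 were higher, with sums of 34.9 and 24.9 against 15.5 and 17.0. Among 7 markers of retinal progenitors 3 were tested and 1, *Dll1*, was higher, with sums of 13.0 and 11.8 against 9.24 and 9.58, while *Fgf15*, a defining progenitor gene, was between 0.0155 and 0.0462 FPKM in all libraries. Müller glia markers were higher in 4 of 6, with sums of 1354 and 1299 against 1171 and 1202. Pigment epithelium markers were higher in 4 of 5 tested, with sums of 60.7 and 54.1 against 33.4 and 20.6. Most of these sums was *Ttr*, at 39.3 and 34.9 FPKM in *rd7* and at 21.1 and 13.1 in wild-type libraries. Under the filter, both *rd7* values of *Best1* (0.110 and 0.0707) lay below wild-type (0.178 and 0.236), while those of *Lrat* lay above. Blood markers were lower in 2 of 3 tested, with sums of 73.4 and 151 against 213 and 286. Among neurons, cone markers were higher in 4 of 6, with sums of 1915 and 2067 against 686 and 731. *Gnat2*, at 757 and 884 FPKM in *rd7* and at 87.8 and 93.4 in wild-type libraries, weighs heavily in these sums. For the cone markers *Opn1mw* and *Arr3* the genotypes overlapped. Horizontal cell markers were higher in 3 of 3, with sums of 35.9 and 36.5 against 25.4 and 25.6, and rod markers were lower in 3 of 4 tested. Among the markers counted, *P2ry12* of microglia, *Lhx1* of horizontal cells and *Tyrp1* of pigment epithelium passed the filter only through *rd7*. They could be counted only as rises. The blood marker *Alas2* passed only through wild-type libraries and could be counted only as a fall. The glial gene *Gfap* was at 10.3 and 28.1 FPKM in *rd7* and at 7.59 and 8.14 in wild-type libraries and was not called. None of the defining markers of microglia, endothelial cells or pericytes was listed at 0. The part of these cells in the differences of *Mki67*, *Top2a*, *Bub1b* and the other members was not tested.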

How the data were processed

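RNA-seq of 4 retina libraries was analysed. The authors aligned 50-base single reads (mm9, TopHat 1.4.1), and Cufflinks 1.3.0 gave the deposited FPKM of each gene in each library; the annotation is not given in the sources used here. Each value carries a status, and 262 of 22095 loci not successful in all libraries were left out. A second deposited table, of the authors' own Cuffdiff comparison (pooled FPKM, fold changes, p-values and q-values), was not used.

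From the FPKM, log2(FPKM + 0.1) of genes with a mean of at least 1 was compared with limma 3.58.1 in R 4.3.3 (variance trend, two-sided, Benjamini-Hochberg over 12655 genes, FDR of 5%), which was tested on simulated data. No count model was used. An exact permutation test of 2 against 2 libraries cannot reach 0.05. P-values measure the spread between pools of animals. With 1 library left out, the spread comes from the other genotype alone, so only log2 fold changes of those fits are given. Lists of members, of other cell cycle genes and of cell type markers were chosen with earlier results of these data known, as was the rule for naming genes: all members, *Nr2e3*, *Cdk1*, and genes of the wider list at an FDR of 5% that changed by at least 1 on the log2 scale without overlap. The 5 lower genes of that list, *Bmf*, *Pak6*, *Bbs7*, loci overlapping members and some of the cell type markers named were added after values were seen.

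Exonic length and GC content came from the GENCODE annotation of the same build, matched by symbol and locus for 93.8% of loci and 96.9% of genes tested. Reads were estimated from FPKM times exonic kilobases, with 1 read worth between 0.0281 and 0.0286, the median in a window of 0.02 to 0.036 taken from the earlier analysis. The length is the union of exons and exceeds the effective length where a gene has several transcripts. Alternatives were pseudocounts of 1 and 0.01, no filter, a minimum mean of 5, scaling by median ratios, quantile normalization, no trend, a replicate block, a correction for GC content and length by natural splines, an FDR of 1%, and leaving out each library. Promoters came from RefSeq (GRCm38) and were located in mm9 by exact match. Python 3.11.15 with scipy 1.17.1 was used.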

Additional observations from a re-analysis of the deposited data

How the results depend on the processing

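With all genes, the calls were 2249 higher and 455 lower without a filter, 2486 and 2459 under median-ratio scaling (50.3% higher, beside 81.0%), 2350 and 2404 under quantile scaling (49.4%), 1520 and 1849 after adjusting for GC and length (45.1%), 1455 and 1757 with this and a replicate block, and 2582 and 446 at an FDR of 1%. Leaving out each library gave 1293 to 5484 higher and 224 to 1601 lower. Members called higher numbered 6 without a filter, at a mean FPKM of at least 5 (11 members fitted), under either scaling and after the GC and length adjustment, with or without the block, and 5 to 12 with a library left out, with 1 to 4 lower. Of the wider list, 11 were higher and 2 lower without a filter, 11 and 13 by median ratios, 10 and 14 by quantiles, 7 and 13 after the GC and length adjustment, 6 and 13 with the block added, 2 lower at an FDR of 1%, and 6 to 24 higher and 1 to 8 lower with a library left out. The replicate block alone gave 9 members higher, without *Mcm6*, and 2 lower, and changed no other member's call. Replicate 1 libraries did not deviate together (r = -0.0265 across genes), so the numbers were not taken as pairs.

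The sign of the log2 fold change turned for *Cdk4* (-0.02 with both scalings, -0.0028 after the GC and length adjustment), *Cdkn1c* (-0.08, -0.09), *Mcm2* (-0.06, -0.12), *Mcm4* (-0.06, -0.13, and -0.19 with the correction), *Mcm7* (-0.10, -0.13 and -0.07) and *Tyms* (-0.09, -0.12 and -0.25), given in the order median-ratio, quantile, correction, and for *Cdkn1b* and *Pcna* with the correction (-0.06 each). With a library left out, *Ccne1* ranged from -0.12 to 0.08, *Cdkn1c* from -0.19 to 0.33, *Mcm4* from -0.05 to 0.24, *Mcm7* from -0.01 to 0.12 and *Tyms* from -0.03 to 0.13. The scalings and the correction move the median of all genes from 0.15 to near 0 by construction, and the cause of the other changes was not tested. Genes with under about 30 estimated reads, *Mki67*, *Top2a* and *Bub1* among them, are limited by depth.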

Other observations

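The genes beside *Bub1b* did not share the size of its change. *Bmf*, a BCL2-family gene upstream of *Bub1b* and on the opposite strand of chromosome 2, had FPKM of 10.1 and 8.73 in *rd7* and of 5.14 and 5.36 in wild-type libraries, with a log2 fold change of 0.83 (adjusted p = 0.00195 from limma). *Pak6*, downstream on the same strand as *Bub1b*, was at 0.624 and 0.662 FPKM in *rd7* and at 0.516 and 0.554 in wild-type libraries, under the filter of the test. Both genes were chosen after their values were seen.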
